A study of Saccharomyces cerevisiae with 4 samples.

Results

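The genes described here encode the proteins of the large subunit of the cytosolic ribosome of the yeast Saccharomyces cerevisiae, and they were found by symbol: RPL followed by a number with or without A or B, and RPP followed by 0, 1 or 2. The rule took 48 genes from probe sets that name 1 gene alone, out of 5656 genes named that way on the array. A probe set is the group of short probes on the array that together give 1 value for a transcript. One match, RPP1 (YHR062C), encodes a subunit of RNase P, the enzyme that trims tRNA precursors, and is no ribosomal protein. It lay under the detection floor used here on 1 array and so enters no count of genes at that floor, which leaves the 47 large subunit genes that were measured. A further 32 genes of the family, such as RPL2A and RPL2B, were read only by probe sets that name both copies of a pair and stand outside the rule.

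All cells were BY4741, a MATa strain that the labels give as his3Δ1 leu2Δ0 met5Δ0 ura3Δ0, grown at 30 °C in YEPD, a rich medium, until OD600 reached 0.5. Dithiothreitol (DTT), a reductant that disturbs protein folding in the endoplasmic reticulum, was added to 2 mM for 1 h, and control cultures took water. The 4 groups were DTT polysomal RNA, DTT sub-polysomal RNA, control polysomal RNA and control sub-polysomal RNA, parted on sucrose gradients after cycloheximide had stalled ribosomes. Extracts of all groups were made in buffers with 0.5 mM DTT, control included, and each group was 1 array of RNA pooled from 3 extracts. With n = 1 per group nothing could be tested against replicates, and the number of arrays limits the precision of every value below.

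Ribosomal proteins of the large subunit surround the rRNA that joins amino acids, line the tunnel through which the new chain leaves, and form the stalk that calls in elongation factors. Yeast keeps most of their genes as A and B copies from an ancient genome duplication, which encode the same or nearly the same protein. Their transcription is driven together by the factors Rap1, Fhl1, Ifh1 and Sfp1, and in growing cells the transcripts are abundant, short and well loaded with ribosomes. When growth slows or cells are stressed, yeast turns these genes down as a group.

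A value for DTT against control, or for polysomal against sub-polysomal RNA, is a log2 difference between arrays, each first shifted so that its measured probe sets have a median of 0, so a value of -1 is 2-fold lower. Such values are relative, and a change in the total RNA of a fraction cannot be seen in them. Plain probe sets, with the ending _at, were kept apart from other endings (_i_at and _f_at), whose probes could not all be chosen to match 1 transcript and may also pick up the paralogue. Plain sets measured 33 of the genes and other endings 15, with RPL31A in both. Where several probe sets of a kind read 1 gene, their disagreement gives an error. Over 111 such gene values its SD (log2) was 0.40 for the sub-polysomal change with DTT, 0.42 for the polysomal change, 0.31 for the polysome ratio with DTT, 0.39 for that ratio in control and 0.40 for the difference of the ratios.

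The control sub-polysomal array, which enters the sub-polysomal change, the control polysome ratio and the change of that ratio, differed most from the others. Its rank correlations with the other arrays were 0.885 to 0.920, against 0.922 to 0.959 among the rest. The ratio of the 3' to the 5' probe set of the actin gene ACT1, a sign of RNA or labelling quality, was 1.91 with DTT and 2.49 in control in sub-polysomal RNA, and 1.48 with DTT and 1.52 in control in polysomal RNA. For YER148w, another gene with such sets, the ratio was 4.83 with DTT and 4.41 in control in sub-polysomal RNA, and 3.12 with DTT and 3.11 in control in polysomal RNA. The ratios of these genes thus differed in opposite directions between DTT and control in sub-polysomal RNA, and their part in the values described next was not tested.

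With each array centred on its median, transcripts of the large subunit were lower with DTT in both fractions, and more so in sub-polysomal RNA. The probe sets found by the rule held 6.78% of the summed intensity of the array with DTT and 11.1% in control in sub-polysomal RNA, and 6.98% with DTT and 8.95% in control in polysomal RNA. By plain probe sets the median of the 33 genes was -0.88 in sub-polysomal RNA (1.83-fold lower) and -0.44 in polysomal RNA (1.36-fold lower), beside -0.20 and -0.10 over all 3808 genes read by plain sets. By other endings the 15 genes had medians of -1.01 and -0.47, beside -0.27 and -0.15 over all 207 genes of that kind.

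In sub-polysomal RNA 12 of 33 genes were at least 2-fold lower by plain probe sets (10.8% of all genes of that kind) and 0 were 2-fold higher (5.38%). Of the same genes 32 lay below 0, where 62.4% of all genes lay. By other endings 8 of 15 were 2-fold lower (16.9%) and 0 higher (12.6%), and 11 lay below 0 (60.9%). Polysomal RNA held 0 of 33 genes past 2-fold in either direction by plain sets (7.06% lower and 4.02% higher among all genes), although 30 lay below 0 (57.8%). There 2 of 15 were 2-fold lower by other endings (6.28%), RPL36A and RPL7B, 0 were 2-fold higher (9.66%), and 11 lay below 0 (58%).

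These sizes depend on how the arrays are scaled. Large subunit probe sets are among the brightest, and 20 to 24 of the 100 brightest probe sets of each array belonged to them. Under loess scaling, which removes a trend of the change with brightness, the sub-polysomal medians shrank to -0.18 (plain) and -0.52 (other), with 0 of 33 and 2 of 15 genes 2-fold lower (6.72% and 6.28% of all genes), and the polysomal medians to -0.069 and -0.14, with 0 of 33 and 0 of 15 genes 2-fold lower (6.38% and 3.86%). Quantile scaling gave -0.16 and -0.43 in sub-polysomal RNA, with 0 of 33 and 1 of 15 genes 2-fold lower (10.1% and 7.73%), and -0.13 and -0.30 in polysomal RNA, with 0 of 33 and 0 of 15 (5.7% and 3.38%). The median of all plain genes moved to -0.049 under loess and to -0.12 under quantile scaling in sub-polysomal RNA. In polysomal RNA it moved to -0.026 and -0.044. Less these, the plain large subunit median stood at -0.13 (loess) and -0.032 (quantile) in sub-polysomal RNA, and at -0.043 and -0.086 in polysomal RNA. By plain sets the fraction with the lower value thus depended on the scaling, while by other endings it was the sub-polysomal one under both. All large subunit medians of the DTT change kept the negative sign under each setting tried. The sub-polysomal median of all genes did so too. Across the 33 plain genes the sub-polysomal change had a Spearman rho of -0.62 with the mean log2 value of the gene over the arrays, so genes with brighter signals lay lower; over all 3808 plain genes rho was 0.065. The points share the same arrays, and the control sub-polysomal array enters both measures.

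**Figure D1:**
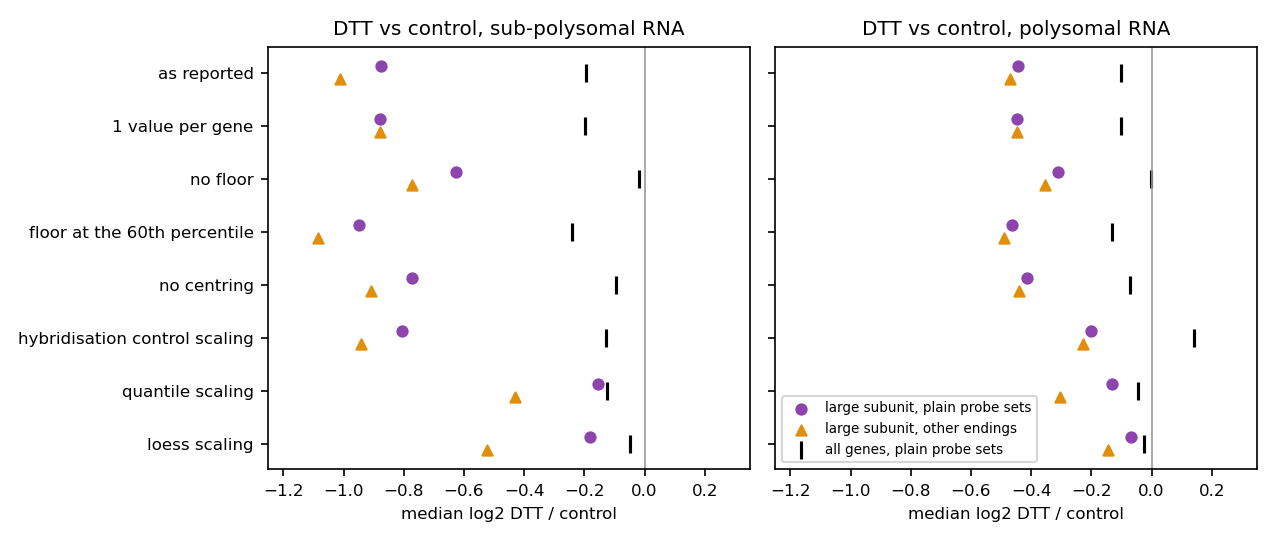
Median log2 DTT/control of the large subunit genes (circles, plain probe sets; triangles, other endings) and of all genes read by plain sets (bars), for each way of processing, in sub-polysomal (left) and polysomal RNA (right). The large subunit medians lie left of 0 in every row; under quantile and loess scaling those of plain sets come close to the bars (-0.16 and -0.18 in sub-polysomal RNA), and those of other endings stay farther left (-0.43 and -0.52).

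**Figure D2:**
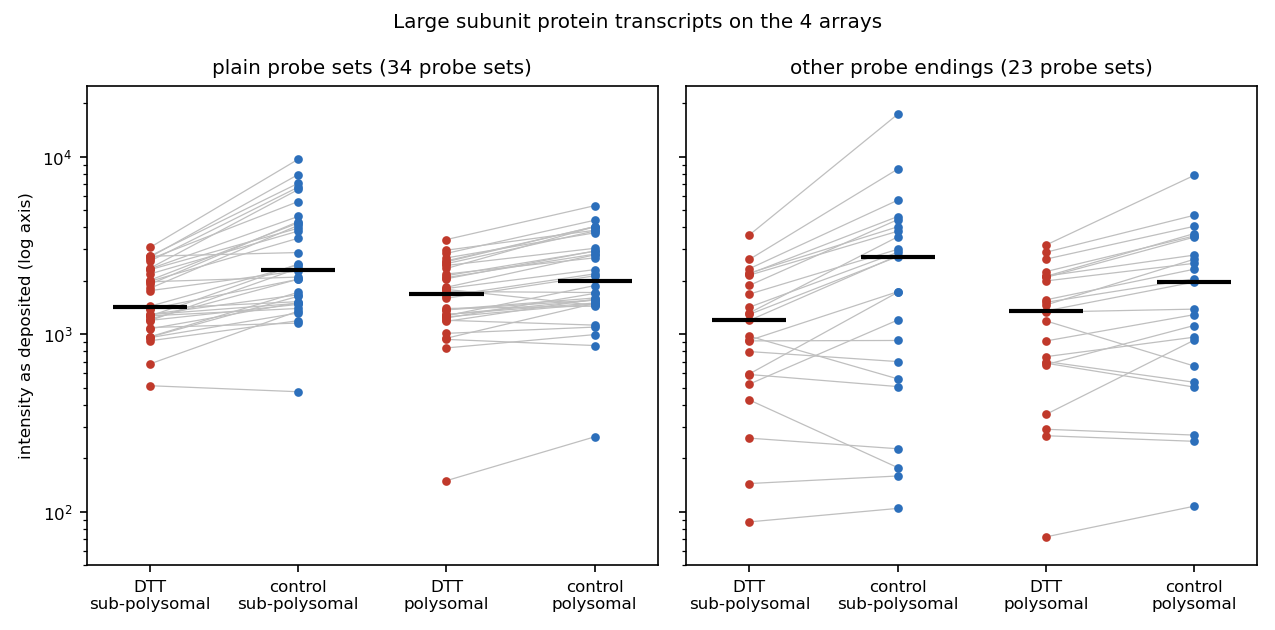
Deposited intensity (log axis) of each measured large subunit probe set on the 4 arrays, with DTT and control joined by a line within each fraction and the median as a black bar. Sub-polysomal control values reach 17315.3 (RPL36A) where the highest with DTT is 3622.7, and most lines run up from DTT to control in both fractions.

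The ribosomal stalk was read by plain probe sets for all of its genes, and all lay lower with DTT in both fractions. RPP0, the protein that anchors the stalk to the rRNA, read 2755.2 with DTT and 7079.5 in control in sub-polysomal RNA, and 2851.0 with DTT and 4380.5 in control in polysomal RNA. Its log2 changes were -1.46 and -0.65. The acidic proteins that sit on Rpp0 and bring elongation factors to the ribosome moved alike. RPP1A read 1263.9 with DTT and 2485.5 in control in sub-polysomal RNA, and 1592.7 with DTT and 2130.4 in control in polysomal RNA (-1.08 and -0.45). RPP1B was read by 2 plain sets, at 1912.0 and 2353.9 with DTT against 4308.7 and 6528.6 in control in sub-polysomal RNA, with a mean change of -1.42 there and -0.66 in polysomal RNA. RPP2A read 2308.0 with DTT and 3951.7 in control in sub-polysomal RNA, and 2051.6 with DTT and 2937.0 in control in polysomal RNA (-0.88 and -0.55). RPP2B read 1984.5 with DTT and 3469.6 in control in sub-polysomal RNA, and 2179.0 with DTT and 2689.6 in control in polysomal RNA (-0.91 and -0.33). Over these 5 genes the median was -1.08 in sub-polysomal RNA, with 3 past 2-fold (10.8% of all plain genes), and -0.55 in polysomal RNA, with 0 past it (7.06%); RPP2B turned to 0.057 in polysomal RNA under loess scaling and to 0.082 under quantile scaling, where RPP2A turned to 0.023 in sub-polysomal RNA.

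Genes for proteins near the catalytic centre and the tRNA path include RPL10, RPL3 and RPL5. RPL10, whose protein is among the last to join the subunit and lies beside the tRNA path, read 2647.6 with DTT and 5586.5 in control in sub-polysomal RNA, and 2586.5 with DTT and 4029.9 in control in polysomal RNA (-1.18 and -0.67). RPL3, whose protein reaches the peptidyl transferase centre, read 1267.1 with DTT and 1395.3 in control in sub-polysomal RNA, and 1287.3 with DTT and 1555.1 in control in polysomal RNA. Its changes of -0.24 and -0.30 were smaller than the SD between probe sets. RPL5, which carries the 5S rRNA into the subunit, read 2747.0 with DTT and 2881.5 in control in sub-polysomal RNA, and 2970.4 with DTT and 3846.1 in control in polysomal RNA (-0.17 and -0.40). RPL3 and RPL5 turned positive in sub-polysomal RNA under loess scaling, at 0.27 and 0.71, and RPL10 stood at -0.24 there and at -0.041 under quantile scaling.

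Around the exit tunnel the genes also differed. RPL25, the docking site of the signal recognition particle at the tunnel exit, read 1192.4 with DTT and 2346.5 in control in sub-polysomal RNA, and 1269.0 with DTT and 1877.3 in control in polysomal RNA (-1.08 and -0.60). Its neighbours at the exit, RPL17A and RPL31B, had changes of -1.46 and -0.66, and of -1.41 and -0.72, by other endings. RPL31A read 2183.0 with DTT and 3807.9 in control in sub-polysomal RNA, and 2436.8 with DTT and 3044.0 in control in polysomal RNA by its plain set (-0.90 and -0.35). Its _f_at set read 1680.6 with DTT and 3002.8 in control in sub-polysomal RNA, and 1992.8 with DTT and 2504.2 in control in polysomal RNA, with nearly the same changes (-0.94 and -0.36). RPL39, a very small protein in the tunnel wall, read 1292.5 with DTT and 1665.7 in control in sub-polysomal RNA, and 933.6 with DTT and 862.2 in control in polysomal RNA. Its changes were thus -0.47 and 0.084, on different sides of 0 but close to it in polysomal RNA.

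The 11 single-copy genes (RPP0 and 10 RPL genes with no paralogue) had medians of -0.85 and -0.30 in sub-polysomal and polysomal RNA by plain sets, and the 18 RPL genes with a paralogue -0.76 and -0.46. The order of these medians thus differed between the fractions, and the difference was not tested. Beside RPP0, RPL10, RPL25, RPL3, RPL5 and RPL39, the single-copy genes were RPL32, RPL29, RPL38, RPL30 and RPL28. RPL32 read 966.1 with DTT and 1721.6 in control in sub-polysomal RNA, and 1179.7 with DTT and 1573.5 in control in polysomal RNA (-0.94 and -0.45). RPL29, which is not essential, read 1436.5 with DTT and 2455.2 in control in sub-polysomal RNA, and 1369.9 with DTT and 1556.8 in control in polysomal RNA (-0.88 and -0.22). RPL38 read 1216.2 with DTT and 2039.9 in control in sub-polysomal RNA, and 1196.1 with DTT and 1123.6 in control in polysomal RNA (-0.85 and 0.060), so that DTT and control lay close together in polysomal RNA alone. RPL30, whose protein represses the splicing of its own transcript, read 1195.2 with DTT and 1471.8 in control in sub-polysomal RNA, and 1394.1 with DTT and 1437.8 in control in polysomal RNA (-0.40 and -0.075). RPL28, in whose protein mutations give resistance to cycloheximide, read 1391.2 with DTT and 1523.5 in control in sub-polysomal RNA, and 1375.6 with DTT and 1598.0 in control in polysomal RNA (-0.23 and -0.25). These last were nearly level in both fractions. Under loess scaling RPL28 and RPL30 were above 0 in both fractions (0.31 and 0.038 for RPL28, 0.11 and 0.20 for RPL30).

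The lowest values belonged to genes with a paralogue. RPL36A, read by 1 _i_at set, was the brightest probe set of the whole control sub-polysomal array: it read 3622.7 with DTT and 17315.3 in control in sub-polysomal RNA, and 3172.8 with DTT and 7833.3 in control in polysomal RNA. Its changes were -2.36 (5.13-fold lower) and -1.33 (2.52-fold lower), with -1.14 and -0.76 under loess scaling. Under quantile scaling they were -0.51 and -0.81, short of 2-fold in both fractions. Without RPL36A the medians of the other endings were -0.98 and -0.45, with 7 of 14 and 1 of 14 genes 2-fold lower (16.9% and 6.28% of all genes of that kind). Among plain sets RPL21B was lowest in sub-polysomal RNA, at 3079.8 with DTT and 9671.2 in control (3.37-fold lower), and at 3409.6 with DTT and 5292.3 in control in polysomal RNA (1.59-fold lower). RPL37A, for a small zinc-binding protein, read 2716.1 with DTT and 7930.1 in control in sub-polysomal RNA, and 2493.8 with DTT and 3808.2 in control in polysomal RNA (-1.65 and -0.64). RPL22A was next (-1.49 and -0.81), followed among plain sets by RPP0, RPP1B and RPL6B (-1.28 and -0.47). Among other endings RPL36B followed RPL36A, and it read 597.1 with DTT and 1719.4 in control in sub-polysomal RNA, and 672.7 with DTT and 1118.0 in control in polysomal RNA (-1.63 and -0.76). The difference between the RPL36 copies, 0.73 in sub-polysomal RNA, turned to -0.76 at its lowest over the settings tried, so the order of the copies depends on the scaling.

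At the other end a few genes were level or higher with DTT. By plain sets the highest sub-polysomal values were those of RPL22B (0.011), RPL5 and RPL27B (-0.18), and the highest polysomal values those of RPL37B (0.27), RPL39 and RPL38. By other endings RPL14B and RPL7A were highest in both fractions, followed by RPL9B (0.096 and 0.079). RPL9A and RPL9B encode a protein that lies near the site where elongation factors bind, and their sets were dim, at 143.9 and 259.3 with DTT and 158.7 and 226.0 in control in sub-polysomal RNA. The brighter set that names both RPL9 copies read 884.6 with DTT and 1412.1 in control there. Its changes were -0.78 in sub-polysomal and -0.69 in polysomal RNA, unlike those of the dim sets. RPL27A stood at 0.0072 and -0.019, as the mean of 2 sets with opposite signs (0.12 and -0.11 in sub-polysomal RNA). Under loess scaling 9 plain genes changed sign in sub-polysomal RNA: RPL3, RPL5, RPL16A, RPL16B, RPL24A, RPL27B, RPL28 and RPL30 lay above 0 and RPL22B below it. In polysomal RNA RPL5, RPL13B, RPL24A, RPL27B, RPL28, RPL29, RPL30, RPL31A and RPP2B lay above 0 under loess scaling. None of these was past 2-fold under either scaling.

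In both fractions together, 29 of 33 genes lay below 0 by plain sets (48.7% of all genes of that kind) and 10 of 15 by other endings (50.2%). Only RPL36A, by other endings, was 2-fold lower in both (3.86%), and 0 of 33 genes by plain sets (4.65%). The sub-polysomal and the polysomal change, which share no array, had a Pearson r of 0.48 and a Spearman rho of 0.59 across the 33 plain genes, against 0.76 and 0.72 across all 3808. Across the 15 genes of other endings they were 0.90 and 0.81, against 0.81 and 0.76 across all 207 of that kind. Genes are not independent replicates, and each array enters every point.

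**Figure D3:**
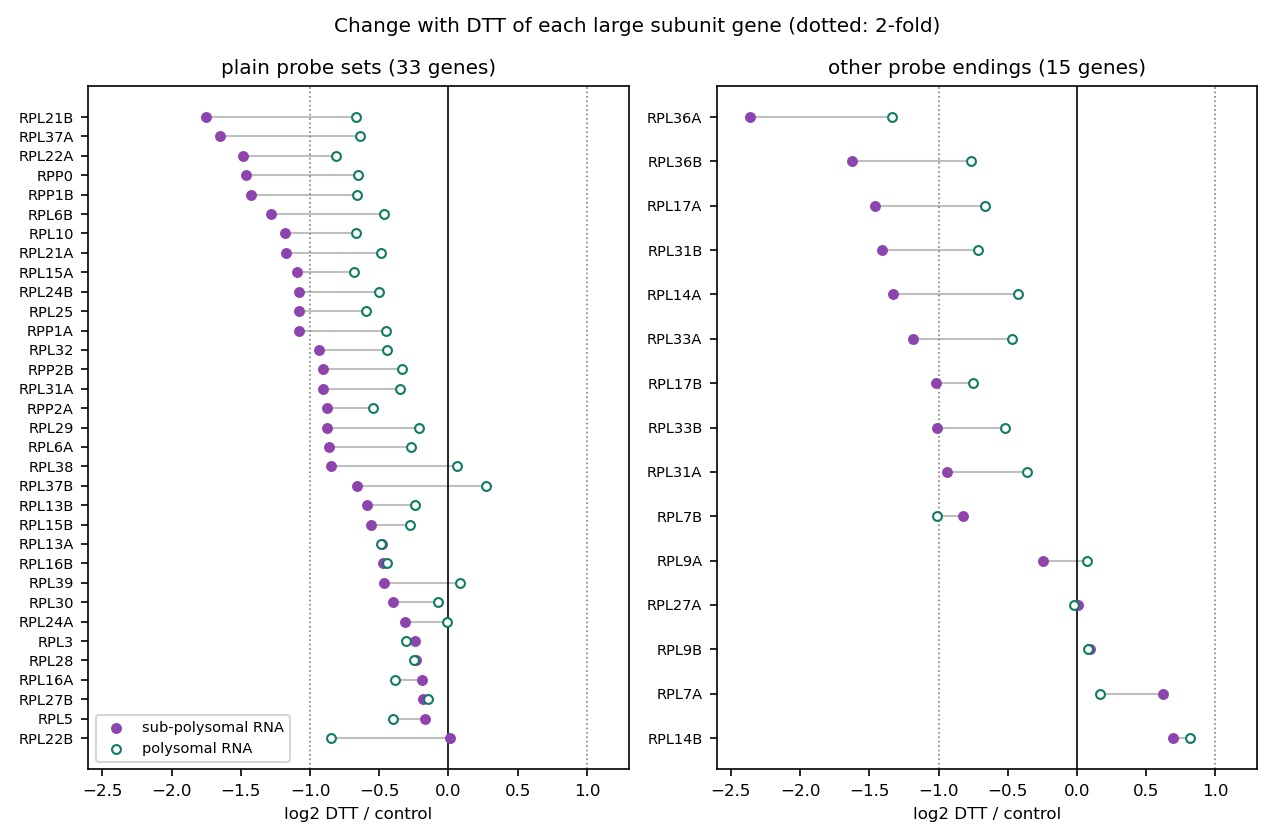
Change with DTT (log2 DTT/control) of each large subunit gene in sub-polysomal RNA (filled) and polysomal RNA (open), by plain probe sets (left) and other endings (right), ordered by the sub-polysomal change; dotted lines mark 2-fold. Most filled points lie left of their open partner, down to -2.36 for RPL36A, while RPL14B and RPL7A lie right of 0 in both fractions.

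Paralogues could be compared within the same arrays where both copies were measured by the same kind of probe set, which held for 10 pairs by plain sets and 7 by other endings. The difference between copies (B minus A in log2 change) leaves out any shift common to an array. No centring, hybridisation control scaling and the stricter floor only shift these values, so they could not move it. Its ranges over the settings tried thus show what loess and quantile scaling do, and they leave out the setting with no floor. By plain sets its median size was 0.47 for the sub-polysomal change and 0.21 for the polysomal change, near or below the SD between probe sets, and 1 and 0 of 10 pairs differed by 2-fold. That SD is for the change of a single gene, and a difference between copies carries the error of both. By other endings the median sizes were 0.47 and 0.36, and 2 of 7 pairs differed by 2-fold in each fraction, RPL14 and RPL7.

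RPL14A and RPL14B had opposite signs. RPL14A read 1881.9 with DTT and 4413.3 in control in sub-polysomal RNA, and 2122.6 with DTT and 2786.4 in control in polysomal RNA. RPL14B read 973.5 with DTT and 559.8 in control in sub-polysomal RNA, and 1187.5 with DTT and 661.4 in control in polysomal RNA. Their changes were -1.33 and -0.42 for RPL14A and 0.70 and 0.81 for RPL14B, so that B exceeded A by 2.03 and 1.24. Over loess and quantile scaling and the reported setting this difference lay between 1.34 and 2.03 in sub-polysomal RNA. In polysomal RNA it lay between 0.92 and 1.24. RPL14B was above 0 in all settings tried. Both copies were read by 1 _f_at set each.

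RPL7 went the other way, with A above B. The 2 sets of RPL7A read 797.3 and 425.3 with DTT and 700.3 and 177.0 in control in sub-polysomal RNA, and 1330.7 and 685.9 with DTT and 1382.6 and 503.1 in control in polysomal RNA. Those of RPL7B read 523.1 and 87.5 with DTT and 1199.5 and 104.2 in control in sub-polysomal RNA, and 352.6 and 72.0 with DTT and 923.6 and 107.2 in control in polysomal RNA. Mean changes were 0.62 and 0.17 for RPL7A and -0.83 and -1.01 for RPL7B, and the difference of B minus A was -1.45 and -1.18. It ranged from -1.54 to -1.45 and from -1.24 to -1.18 over the settings tried. The sets of each copy differed in size, with sub-polysomal changes of 0.085 and 1.16 for RPL7A and of -1.30 and -0.35 for RPL7B. A brighter set that names both RPL7 copies read 1371.1 with DTT and 1634.5 in control in sub-polysomal RNA. Its changes were -0.36 in sub-polysomal and 0.091 in polysomal RNA, between those of the 2 copies.

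RPL22 was the plain pair with the largest difference in sub-polysomal RNA. RPL22A read 2579.3 with DTT and 6733.4 in control in sub-polysomal RNA, and 2343.5 with DTT and 4026.9 in control in polysomal RNA. RPL22B, whose splicing is repressed by the Rpl22 protein, read 511.9 with DTT and 473.5 in control in sub-polysomal RNA, and 149.4 with DTT and 263.8 in control in polysomal RNA. B minus A was 1.50 in sub-polysomal RNA and -0.039 in polysomal RNA. Over the settings tried the polysomal difference reached -0.49, and the sub-polysomal difference was 0.35 at its smallest, below the SD between probe sets.

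RPL37 came closest to 2-fold among the rest. RPL37B read 1384.9 with DTT and 2035.7 in control in sub-polysomal RNA, and 1786.5 with DTT and 1452.6 in control in polysomal RNA. Its changes of -0.66 and 0.27 lay above those of RPL37A by 0.99 and 0.91; the settings tried gave 0.23 to 0.99 and 0.75 to 0.91. RPL24 showed the reverse order. RPL24A read 1288.9 with DTT and 1490.6 in control in sub-polysomal RNA, and 1739.1 with DTT and 1714.8 in control in polysomal RNA. RPL24B read 2332.5 with DTT and 4602.3 in control in sub-polysomal RNA, and 2687.3 with DTT and 3720.8 in control in polysomal RNA. The copies thus stood with RPL24A (-0.31 and -0.010) above RPL24B (-1.08 and -0.50); their protein forms a bridge between the subunits. B minus A was -0.77 and -0.49 there, -0.58 and -0.18 for RPL21, and -0.41 and -0.20 for RPL6. Over the settings tried the sub-polysomal difference shrank to -0.22 for RPL24 and to -0.026 for RPL21 at its smallest. RPL21A read 2014.2 with DTT and 4232.4 in control in sub-polysomal RNA, and 2134.6 with DTT and 2932.4 in control in polysomal RNA. RPL6A read 962.2 with DTT and 1633.4 in control in sub-polysomal RNA, and 1249.6 with DTT and 1478.5 in control in polysomal RNA. RPL6B read 1812.7 with DTT and 4099.7 in control in sub-polysomal RNA, and 2082.6 with DTT and 2821.4 in control in polysomal RNA. Under some settings the copies of RPL6 turned order (B minus A up to 0.023 in sub-polysomal RNA). RPL15 ran the other way: RPL15A read 679.8 with DTT and 1349.2 in control in sub-polysomal RNA, and 948.5 with DTT and 1488.6 in control in polysomal RNA (-1.09 and -0.68). RPL15B read 955.8 with DTT and 1315.9 in control in sub-polysomal RNA, and 835.8 with DTT and 993.7 in control in polysomal RNA (-0.56 and -0.28). RPL15B thus had the smaller change in both fractions. The copies of RPL13 and RPL16, and the stalk pairs RPP1A with RPP1B and RPP2A with RPP2B, differed by at most 0.35 in sub-polysomal RNA. RPL13A read 917.1 with DTT and 1190.3 in control in sub-polysomal RNA, and 1232.7 with DTT and 1695.2 in control in polysomal RNA. RPL13B read 1071.6 with DTT and 1504.4 in control in sub-polysomal RNA, and 1290.8 with DTT and 1496.5 in control in polysomal RNA. RPL13A was thus lower with DTT by about as much in each fraction (-0.48 and -0.49). RPL16A read 1972.4 with DTT and 2096.2 in control in sub-polysomal RNA, and 1807.0 with DTT and 2308.5 in control in polysomal RNA. RPL16B read 1757.5 with DTT and 2271.8 in control in sub-polysomal RNA, and 1640.6 with DTT and 2185.1 in control in polysomal RNA. The changes of the RPL16 copies were -0.19 and -0.38 for RPL16A and -0.47 and -0.44 for RPL16B. RPL33A and RPL33B, read by _f_at sets, stood at -1.18 and -0.47 and at -1.01 and -0.52, and RPL17B at -1.02 and -0.75.

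**Figure D4:**
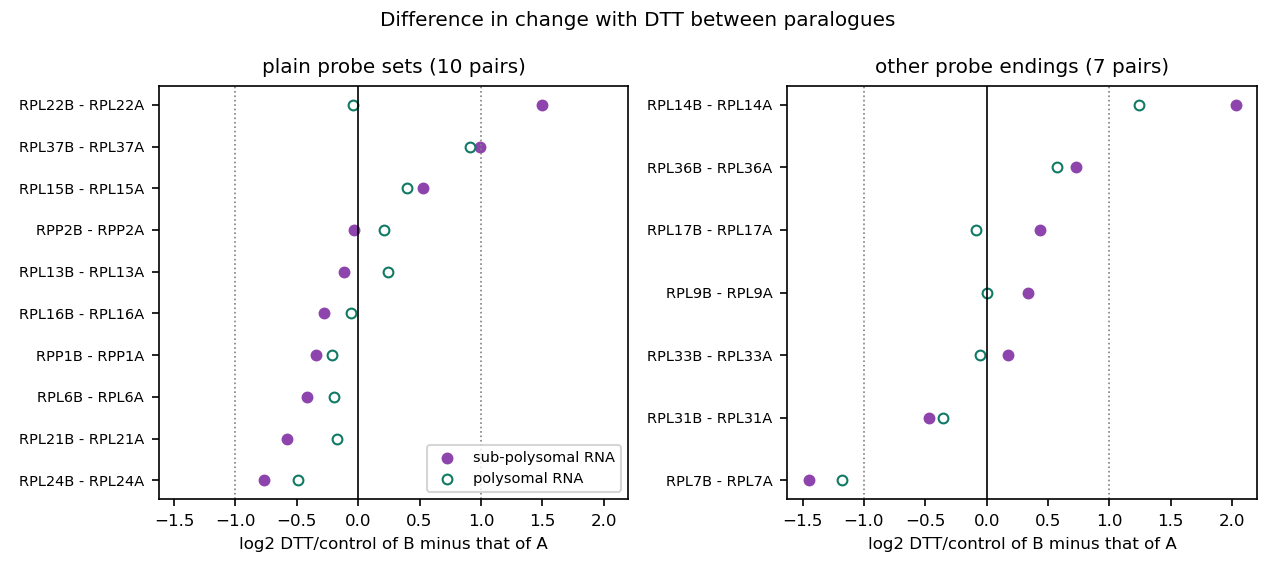
Difference between paralogues in the log2 change with DTT (B minus A) in sub-polysomal (filled) and polysomal RNA (open), for 10 pairs by plain sets (left) and 7 by other endings (right); dotted lines mark 2-fold. RPL14 (2.03 and 1.24) and RPL7 (-1.45 and -1.18) lie past 2-fold in both fractions, and RPL22 (1.50) in sub-polysomal RNA.

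The polysome ratio sets polysomal against sub-polysomal RNA of the same treatment, each relative to the median of its array. It ranks transcripts against each other and does not give the share of a transcript that runs with several ribosomes. Large subunit genes had a median ratio (log2) of 0.33 with DTT and -0.15 in control by plain sets, beside 0.079 and -0.030 over all genes, and of 0.41 with DTT and -0.092 in control by other endings, beside 0.24 and 0.030. With DTT 31 of 33 plain genes lay above 0 (54.4% of all genes) and 14 of 15 by other endings (61.8%). In control 13 of 33 (48.5%) and 7 of 15 (50.7%) did. The ratio with DTT turned to -0.090 and -0.020 for the plain and other kinds under loess and to -0.11 and -0.033 under quantile scaling, and the ratio in control turned to 0.025 and 0.086 with hybridisation control scaling and to 0.18 and 0.24 with no floor. In these last settings the median over all plain genes was itself 0.15 and 0.19, above that of the large subunit by plain sets.

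Few genes passed 2-fold in either condition. With DTT 0 of 33 plain genes were 2-fold higher in polysomal RNA (4.86%) and 1 of 15 by other endings (7.73%), RPL9A, which read 267.6 in polysomal and 143.9 in sub-polysomal RNA (1.14). In control 0 of 33 were 2-fold higher (7.06%) and 1 of 15 (8.7%), RPL7A, with a ratio of 1.41 there and 0.96 with DTT. The brighter set that names both RPL7 copies had ratios of 0.17 in control and 0.61 with DTT. The plain set of RPL7A, under the floor in polysomal RNA, read lower there than in sub-polysomal RNA. The control ratio was 2-fold lower for 0 of 33 (6.36%) and 0 of 15 genes (7.73%). RPL22B was the 1 gene 2-fold lower by plain sets with DTT (3.73% of all genes), beside 0 of 15 by other endings (6.28%), at -1.54, against -0.67 in control; over the settings tried its ratio with DTT lay between -1.91 and -1.18. RPL39 was next lowest with DTT (-0.23, and -0.78 in control), and RPL37A (-0.89) and RPL36A (-0.97) were lowest in control. RPL15A (0.72), RPL13A (0.67) and RPL24A (0.67) had the highest ratios with DTT among plain sets.

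The change in polysome association, the ratio with DTT minus the ratio in control, was above 0 for 27 of 33 genes by plain sets (57.1% of all genes) and 11 of 15 by other endings (55.6%). Its medians were 0.51 and 0.49, beside 0.082 and 0.069 over all genes, and above 0 in all settings tried. Under loess scaling they were 0.18 and 0.29, and under quantile scaling 0.084 and 0.035, beside 0.054 and 0.012 over all genes. Past 2-fold were 2 of 33 plain genes (1.84%), RPL21B (1.09) and RPL37A (1.01), and 1 of 15 by other endings (7.25%), RPL36A (1.02); none of these reached 2-fold under loess or quantile scaling, and RPL36A turned to -0.29 under the second. At 2-fold lower there were 0 of 33 (1.44%) and 0 of 15 genes (1.93%). The lowest were RPL22B (-0.86), RPL5 (-0.23) and RPL16A (-0.19) by plain sets and RPL7A (-0.46), RPL7B (-0.19) and RPL27A (-0.026) by other endings. RPL22B kept a negative change in all settings tried (-0.98 to -0.69). By construction this quantity is the polysomal change with DTT minus the sub-polysomal one, and it rests on the control sub-polysomal array.

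**Figure D5:**
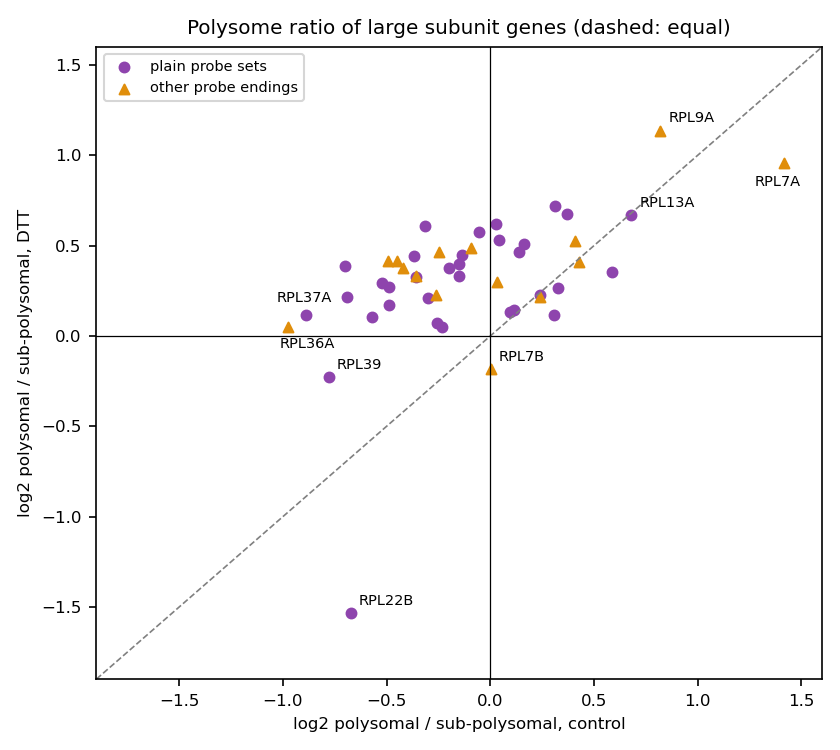
Polysome ratio (log2 polysomal/sub-polysomal) of each large subunit gene with DTT (vertical axis) and in control (horizontal axis), by plain probe sets (circles) and other endings (triangles); the dashed line marks equal ratios. Most points lie above the line, RPL22B lies apart at -1.54 with DTT and -0.67 in control, and the side of 0 on either axis depends on the scaling.

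Genes around the large subunit give a frame. Small subunit protein genes (RPS) had medians of -0.76 and -0.44 in sub-polysomal and polysomal RNA by plain sets (18 genes, 7 and 1 at least 2-fold lower, where 10.8% and 7.06% of all genes were). By other endings they were -1.08 and -0.48 (18 genes, 10 and 0, where 16.9% and 6.28% were). Their change in polysome association had medians of 0.35 and 0.57. Of the dedicated chaperones that carry single large subunit proteins to the assembling ribosome, 3 of 5 were measured, and their changes with DTT did not go together. RRB1, which carries Rpl3, was lower in both fractions (-1.01 and -1.37), BCP1, which carries Rpl23, stood at -0.38 and -1.04, and SQT1, which carries Rpl10, at 0.97 and 0.26. BCP1 was dim, with centred log2 values of -1.81 to -0.76 over the arrays. The change in polysome association was below 0 for all 3 (-0.70 to -0.36), as for 42.9% of all plain genes. Of 8 regulators of ribosomal protein genes 6 were measured by plain sets, with medians of -0.26 and -0.14. IFH1, the co-activator of these genes, was lowest in sub-polysomal RNA (-1.14, and -0.54 in polysomal RNA). RAP1, which binds their promoters, was lowest in polysomal RNA (-0.61, and -0.88 in sub-polysomal RNA), and HMO1, which also binds there, at 0.68 and 0.82. SFP1 had changes of -0.21 and -0.0075.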

How the data were processed

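The authors hybridised biotin-labelled RNA of each group to 1 Affymetrix yeast array, per the labels' protocols, and deposited 1 linear intensity for each of 9335 probe sets and array; the summarising algorithm and build are not given in the sources used here. All deposited intensities had been scaled: the mean after trimming 2% from each end is about 100 on each array (100.1 on all). No column lacks a sample (0). Arrays were washed and scanned separately, per the run sheets, and run and group cannot be told apart.

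Probe sets were named through the platform's gene table; all 48 genes matched RefSeq assembly R64 by gene ID, and 0 symbols changed. A probe set was measured when above the 40th percentile of every array (15.9, 22.6, 17.6 and 28.2 for DTT polysomal, DTT sub-polysomal, control polysomal and control sub-polysomal RNA), which held for 4720 probe sets that are no controls. Of 59 probe sets found by the rule, that of RPP1 included, 57 were measured. Intensities were taken to log2, centred per array on the median, and averaged per gene and kind of probe set. With 1 array per group no test was made, and genes were counted past 2-fold. By rule any measured large subunit gene could be named, with intensities for stalk genes, single copies, paralogue pairs and the 3 highest and 3 lowest of each quantity; pairs near the median are given by their change alone. Genes and lists were chosen with earlier results of these data known. Alternatives were other scalings (none, quantile, loess with span 0.4, hybridisation controls), floors, limits and 1 value per gene. The steps were tested on simulated data with equal numbers of randomly picked genes raised and lowered. Those data held no bright group that shifts in a single direction, so the test does not bear on that case. Python 3.11.15, pandas 2.3.3 and statsmodels 0.14.6 were used. Sequences and promoter motifs were not analysed here.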

Additional observations from a re-analysis of the deposited data

How the results depend on the processing

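No paired analysis was possible because each group holds 1 array, which also means that no replicate could be left out. Of 142 values from 9 alternatives for 18 results, 89 stayed close to the reported value, and the cause of the other shifts was not tested. Close means a median that kept its sign and moved by less than the SD between probe sets, or a count within 1.5-fold. A median could lose most of its size and still be close, as the plain polysomal DTT change did (-0.44 reported, -0.069 under loess scaling). The medians of the change with DTT and of the change in polysome association kept their sign in each alternative, while those of the polysome ratio did not. Under loess scaling the sub-polysomal medians were -0.18 (plain) and -0.52 (other), and the ratios with DTT -0.090 and -0.020. The 2-fold counts were 0 and 2 (sub-polysomal lower, 6.72% and 6.28% of all genes). They were 0 (polysomal lower, other, 3.86%) and 0 (ratio with DTT, other, 3.86%). Under quantile scaling the same medians and ratios were -0.16 and -0.43, and -0.11 and -0.033, with changes in association of 0.084 and 0.035. The same counts were 0 and 1 (10.1% and 7.73%), 0 (3.38%) and 0 (4.83%). Hybridisation control scaling moved the medians of all plain genes to 0.14 in polysomal RNA. For the ratios it moved them to 0.43 (with DTT) and 0.15 (in control). The large subunit ratios became 0.68 and 0.76 with DTT and 0.025 and 0.086 in control. Counts were then 3 and 2 higher with DTT (16.1% and 15.9% of all genes) and 1 lower in polysomal RNA (other, 3.38%). With no centring all plain genes had ratios of -0.16 and -0.20. The counts were 0 (ratio with DTT, other, 4.35% of all genes) and 1 (polysomal lower, other, 4.35%). With no floor, where the plain RPL7A set and RPP1 also enter (35 plain genes), the ratios in control were 0.18 and 0.24. Then 6 and 5 genes were lower in sub-polysomal RNA (9.78% and 15.8% of all genes), and 1 in polysomal RNA (other, 17.3%). By the ratio 2 and 2 were higher in control (16.1% and 18.6%), and 2 with DTT (other, 8.93%). With a floor at the 60th percentile 0 were higher with DTT (other, 5.11% of all genes). With 1 value per gene, over 47 genes, 20 were lower in sub-polysomal RNA (11.1% of all genes), 2 in polysomal RNA (7.04%), and 1 higher by the ratio with DTT (4.79%) and in control (7.11%). At a 3-fold limit the counts were 2 and 2 (sub-polysomal lower) and 0 elsewhere. At 1.5-fold they were 21 (sub-polysomal, plain), 9 and 6 (polysomal), 5 and 2 (ratio with DTT) and 2 and 2 (ratio in control). Shares of all genes past either limit were not computed, so these counts have nothing to be set against. Measured large subunit sets, which lie above the floors by definition, read 72.0 to 17315.3 over floors of 15.9 to 28.2. Whether background limited the dimmer sets was not tested.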

Other observations

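Probe sets that name both copies of a pair, which the rule leaves out, cover the rest of the large subunit. These 38 sets name 44 genes, and their medians were -0.80 in sub-polysomal and -0.39 in polysomal RNA, with 14 and 0 at least 2-fold lower, 0 higher, and 35 and 33 below 0. Over all genes 10.8% and 7.06% were 2-fold lower by plain sets named alone, and 16.9% and 6.28% by other endings. Higher by 2-fold were 5.38% and 4.02% by plain sets, and 12.6% and 9.66% by other endings. Below 0 lay 62.4% and 57.8% by plain sets, and 60.9% and 58% by other endings. The set for RPL26A and RPL26B, a protein at the tunnel exit, read 3110.6 with DTT and 8694.0 in control in sub-polysomal RNA, and 3295.3 with DTT and 4972.5 in control in polysomal RNA. The set for RPL41A and RPL41B, which encode a very short protein, was dim, at 105.0 with DTT and 240.6 in control in sub-polysomal RNA, and 67.9 with DTT and 61.4 in control in polysomal RNA. Its polysome ratio was -0.39 with DTT and -1.80 in control, and that control ratio is the lowest of the 38 shared sets.

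In sub-polysomal RNA, sets that name the same pair differed in sign for 3 pairs. For RPL14A and RPL14B the sub-polysomal changes were -1.35, -1.09 and 0.36, for RPL8A and RPL8B -1.03, -0.36 and 0.63, and for RPL40A and RPL40B, ubiquitin fused to a ribosomal protein, -1.47, -0.99 and 0.13. In polysomal RNA the sets of RPL34A and RPL34B also differed in sign (-0.51, -0.38 and 0.15), and those of RPL8A and RPL8B did not. The set shared by RPL36A and RPL36B read 1796.7 with DTT and 2631.6 in control in sub-polysomal RNA, a change of -0.65, beside -2.36 for the RPL36A set and -1.63 for the RPL36B set.

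The rule also met 2 probe sets that were not above the floor on all arrays. The plain set of RPL7A read 12.6 with DTT and 16.6 in control in polysomal RNA, both under the floor, but 147.2 with DTT and 94.1 in control in sub-polysomal RNA, a pattern unlike the other sets of that gene. RPP1, the RNase P gene, read 61.6 with DTT and 40.9 in control in polysomal RNA, and 94.0 with DTT and 22.7 in control in sub-polysomal RNA, the last under the floor.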
